A study of Mus musculus with 30 samples.

Results

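The piggyBac (PB) insertion landscape was described in 12 of the 30 livers of the series, those whose titles number them 1 to 12 within the PB group. Together they held 1106977 insertion site records at 833852 distinct genomic positions. All 12 livers came from Fah knockout mice, which cannot make the enzyme of the final step in breaking down tyrosine (Fah) and serve as a model of tyrosinemia type I. Each mouse had received the PB gene therapy vector system in vivo, and liver DNA was taken when its monitoring period ended. The labels used here give no strain, sex, age, dose or length of monitoring. The DNA came from lysates of whole livers, so insertions in hepatocytes and in other liver cells are pooled. Sites were read by streptavidin-based enrichment sequencing, in which fragments holding a transposon end are amplified with a biotinylated primer and captured. Every site spans 4 bp of GRCm39 and carries a strand and a whole number, called its support here and taken as the reads behind the site. Its smallest value was 3 in each of the 12 livers.

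PB is a cut-and-paste DNA transposon. Its transposase inserts the vector at the tetranucleotide TTAA, which is duplicated on either side of the insertion. PB insertions are known to fall often in open chromatin and in or near genes active in the host cell, which in this organ means mainly hepatocyte genes. In Fah knockout livers, hepatocytes that regain the enzyme are known to survive and to repopulate the organ.

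The target tetranucleotide is short enough to stand in many promoters. Of 32851 RefSeq promoters of 300 bases in GRCm38.p6 (250 bases before to 50 after a gene's start), 52.4% held TTAA on either strand, as the motif is its own reverse complement. Of the 8 genes given below as known near the densest 10 kb windows, Prr16 was not looked up, and 3 of the others had an entry in that table. They are shown, the first entry of each, because these genes are known near the densest windows. TTAA is in capitals and occurs 3 times for Ugt1a1, 1 time for Trpm7 and 2 times for Cp. The insertion positions are in GRCm39 and were not set onto these sequences.
Ugt1a1 (chr1:88211709-88212008, plus strand): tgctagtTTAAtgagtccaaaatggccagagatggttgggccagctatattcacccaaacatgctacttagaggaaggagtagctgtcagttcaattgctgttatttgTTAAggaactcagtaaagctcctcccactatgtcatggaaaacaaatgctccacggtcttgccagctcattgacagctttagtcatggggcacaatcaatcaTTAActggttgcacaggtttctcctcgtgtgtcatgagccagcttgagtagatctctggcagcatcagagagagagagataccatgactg
Trpm7 (chr2:126876212-126876511, minus strand): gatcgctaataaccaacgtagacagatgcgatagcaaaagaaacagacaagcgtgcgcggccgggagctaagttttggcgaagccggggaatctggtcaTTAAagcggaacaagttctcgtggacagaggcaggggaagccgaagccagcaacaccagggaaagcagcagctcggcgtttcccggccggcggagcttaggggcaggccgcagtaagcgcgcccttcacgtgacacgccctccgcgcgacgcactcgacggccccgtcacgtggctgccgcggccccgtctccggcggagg
Cp (chr3:19956804-19957103, plus strand): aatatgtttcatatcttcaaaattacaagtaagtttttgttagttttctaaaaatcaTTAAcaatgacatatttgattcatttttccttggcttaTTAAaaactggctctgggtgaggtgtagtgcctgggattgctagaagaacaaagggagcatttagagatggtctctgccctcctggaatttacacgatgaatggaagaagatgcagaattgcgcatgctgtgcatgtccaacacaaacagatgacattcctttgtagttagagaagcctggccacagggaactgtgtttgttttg

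The livers held between 66528 and 124238 sites, with a median of 90237.5 per liver. Sites on the sex chromosomes set livers 1 to 6 apart from livers 7 to 12. In livers 1 to 6 the X chromosome took 2.20% to 2.27% of nuclear sites and the Y chromosome held 37 to 109 sites. In livers 7 to 12 the X share was 3.49% to 3.65% and the Y chromosome held 2 to 12 sites. Neither range overlapped. Per megabase, the X chromosome held 0.326 to 0.336 times the autosomal density in livers 1 to 6 and 0.524 to 0.548 times in livers 7 to 12. These ranges were seen in the data, so no test between them is given, and the landscape below was measured on the autosomes alone.

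Among the 12 livers, PB insertions were concentrated in a minority of small windows, and the densest of these lay in the neighbourhoods of Sfi1, Ugt1a1, Trpm7 and Cps1. The following densities are sites per 10000 autosomal sites of a liver, averaged with equal weight per liver. Genes are those known from general knowledge to lie in the neighbourhood. Other genes lie in the same neighbourhoods, and a gene named need not be the nearest to its window. No window was assigned to an exon, intron or promoter, since the gene table used is that of GRCm38.p6. No enrichment of any gene class was tested.

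Autosomes were cut into 240251 windows of 10 kb, which held 0.0416 sites per 10000 on average. The densest, chr11:3090001-3100000, lies near Sfi1, which encodes a centrin-binding protein of the spindle pole. It held 7 sites in the lowest liver, 13.5 in the median and 18 in the highest, or 1.44 ± 0.339 sites per 10000 (SD, n = 12). That was 34.5 times the mean window. Copy number of this region was not examined. Its 152 records fell at 37 positions, and chr11:3096764-3096767 was hit in all 12 livers with 20 records.

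A pair of the 10 densest 10 kb windows lie in the neighbourhood of Ugt1a1, the enzyme that conjugates bilirubin, where the GRCm38.p6 gene order runs from the other Ugt1a genes through Ugt1a1 to Mroh2a, Hjurp and Trpm8. In chr1:88200001-88210000, livers held 7 to 20 sites with a median of 11, or 1.39 ± 0.335 per 10000 (SD, n = 12). In chr1:88140001-88150000 they held 7 to 13 with a median of 9, or 1.09 ± 0.253 per 10000 (SD, n = 12). The window next to the first, chr1:88210001-88220000, ranked just outside the 10 with 1.08 per 10000, as did chr5:87520001-87530000. The same neighbourhood holds chr1:88213525-88213528, hit in all 12 livers with 11 plus-strand and 11 minus-strand records and the highest summed support, 4340, of the 66 positions found in every liver.

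Another window on chromosome 1, chr1:67150001-67160000, lies near Cps1, which encodes the mitochondrial carbamoyl phosphate synthetase that opens the urea cycle. Livers held 6 to 18 sites there with a median of 10, or 1.21 ± 0.347 per 10000 (SD, n = 12), at 56 distinct positions.

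The window chr3:20010001-20020000 lies near Cp, which encodes the copper-carrying plasma protein ceruloplasmin. It held 5 to 16 sites per liver with a median of 9, or 1.12 ± 0.347 per 10000 (SD, n = 12). The window chr15:34490001-34500000 lies near Rida, which encodes an enzyme that clears reactive imines. It held 6 to 13 sites with a median of 10.5, or 1.16 ± 0.320 per 10000 (SD, n = 12). The window near Trpm7, an ion channel joined to a kinase, and its neighbour Sppl2a, an intramembrane protease, varied most among the 9. In this window, chr2:126770001-126780000, livers held 6 to 24 sites with a median of 10.5, or 1.3 ± 0.507 per 10000 (SD, n = 12). The window chr18:51290001-51300000, near Prr16, held 5 to 17 sites with a median of 9.5, or 1.14 ± 0.345 per 10000 (SD, n = 12). The window chr10:128800001-128810000, near the laminin-binding integrin gene Itga7 and its neighbour Mettl7b, held 4 to 16 sites with a median of 9.5, or 1.10 ± 0.341 per 10000 (SD, n = 12). Each of these 9 windows held a site in each of the 12 livers and stood in the densest 1% of windows of every liver, ties included. They were chosen on the same 12 livers, so this is largely fixed by the choice and is no separate sign of agreement. The order among the 9 was not tested. Their SDs, which give the spread between livers, exceed the gaps between neighbouring means.

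**Figure D1:**
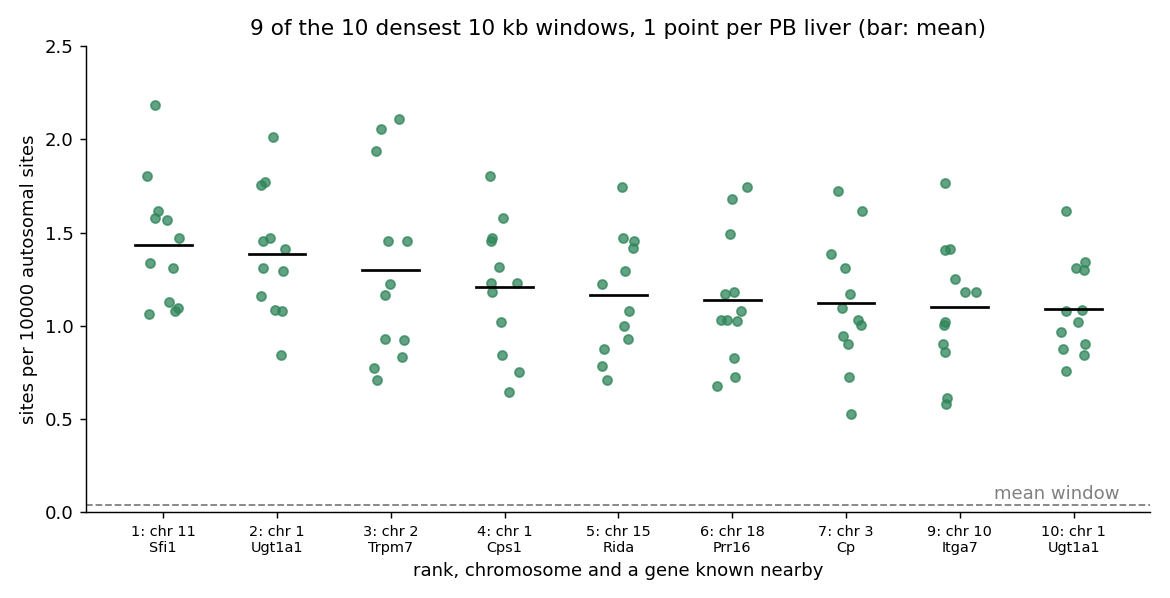
Sites per 10000 autosomal sites in 9 of the 10 densest 10 kb windows, in order of rank on the horizontal axis with the chromosome and a gene known nearby; each point is a PB liver (n = 12) and each bar the mean. The means fall from 1.44 to 1.09 with overlapping points, far above the dashed line of the mean window at 0.0416.

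What these windows share beyond density is repeated use of the same positions. Of all autosomal records, 37.1% lay at positions found in more than 1 liver. In these 9 windows that share ran from 76.3% near Cp to 91.4% near Sfi1. The single most used position took 5.76% of the records near Trpm7, the lowest, and 15.8% in the Ugt1a1 window from 88140001, the highest, so none of the 9 windows rested on 1 position. Ranking and reuse are not independent, since a window gains density each time a position is hit again. With positions found in more than 1 liver left out, 0 of the 10 densest windows remained among the 10 densest.

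At 100 kb, 24042 windows averaged 0.416 sites per 10000. The densest was chr14:21100001-21200000, near Adk, which encodes adenosine kinase. Livers held 22 to 59 sites there with a median of 41, or 4.56 ± 0.646 per 10000 (SD, n = 12), 11 times the mean window. Its 488 records fell at 286 positions, of which 188 were found in 1 liver alone. The Trpm7 neighbourhood came next with 4.42 ± 0.998 in chr2:126700001-126800000. It was followed by chr5:66200001-66300000, near the RNA-binding protein gene Rbm47, with 4.36 ± 0.755, by the Cps1 neighbourhood in chr1:67100001-67200000 with 4.24 ± 0.780 and the Sfi1 neighbourhood in chr11:3100001-3200000 with 4.02 ± 0.572 (SD, n = 12 each). Of the 5 densest 100 kb windows, 3 lie in or next to neighbourhoods already named at 10 kb. The Trpm7 and Cps1 windows contain the 10 kb windows named above, so the same records count at both sizes. With positions found in more than 1 liver left out, 1 of these 5 windows remained among the 5 densest.

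At 1 Mb, 2412 windows averaged 4.15 sites per 10000, and windows differed far less. The densest, chr5:87000001-88000000, is known for the Ugt2a and Ugt2b genes of glucuronidation, with sulfotransferase and casein genes beyond them. It held 106 to 230 sites per liver with a median of 148, or 17.1 ± 1.29 per 10000 (SD, n = 12), 4.13 times the mean window. The Adk window, chr14:21000001-22000000, which also holds the histone acetyltransferase gene Kat6b, followed with 16.9 ± 1.15. Next were chr4:150000001-151000000 around the transcriptional regulator gene Rere with 16.0 ± 1.33 and chr11:86000001-87000000 around the autophagy gene Vmp1 with 15.9 ± 1.58. The fifth was chr8:41000001-42000000 around Fgl1, a fibrinogen-like protein secreted by hepatocytes, and Pcm1, with 14.3 ± 1.39 (SD, n = 12 each). With positions found in more than 1 liver left out, 3 of these 5 windows remained among the 5 densest.

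Unevenness grew as windows shrank. The extra-Poisson coefficient of variation (CV), which removes the spread that counting alone gives, was 0.648 ± 0.0155 over 1 Mb windows, 1.10 ± 0.0307 over 100 kb and 1.71 ± 0.0528 over 10 kb (SD, n = 12 each). When reused positions, those seen in more than 1 liver, were dropped, the CVs were 0.50, 0.804 and 1.17. At 1 Mb the windows at the 10th and 90th percentile held 1.12 and 7.80 sites per 10000, and no window was empty in all 12 livers. At 10 kb, 19.0% of windows held no site in any liver and 1.64% held a site in every liver. To avoid ranking and measuring windows on the same liver, windows were ranked on 11 livers and their share read in the remaining one. The densest 10% of windows then held 23.0% ± 0.440 of sites at 1 Mb, 36.0% ± 0.825 at 100 kb and 48.5% ± 1.16 at 10 kb (SD, n = 12 each). The densest 1% of 10 kb windows alone held 11.6% ± 0.449 of sites. By contrast, the sparsest 10% held 2.23% of sites at 1 Mb and 2.03% at 100 kb on average. No such share is given at 10 kb, where the 19.0% of windows empty in every liver already tie at 0.

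Between autosomes the density varied less. Chromosome 19 had the highest density, 6.17 sites per 10000 per Mb of the span between its first and last site, followed by chromosome 11 with 5.02. The lowest were chromosome 14 with 3.49 and chromosome 7 with 3.55. The share of a chromosome varied little between livers: chromosome 19 took 3.52% to 3.68% of autosomal sites over the 12 livers and chromosome 7 took 4.83% to 5.21%.

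The livers agreed closely over large windows. Over 1 Mb windows Pearson's r between livers ran from 0.906 to 0.951 across the 66 pairs, with a median of 0.931. Over 100 kb the median was 0.803 (0.748 to 0.854) and over 10 kb 0.498 (0.420 to 0.593). These correlations are across windows of the same genome, which are not independent, and are given as a description. They rise with the number of sites in a window, which averaged 37.1 per liver at 1 Mb, 3.72 at 100 kb and 0.372 at 10 kb. Liver 4, the smallest library, had the lowest mean r with the others at each window size, and liver 7, the largest, the highest. With every liver thinned to 66528 sites the medians were 0.911, 0.754 and 0.426. With reused positions dropped they were 0.829, 0.553 and 0.164. That step takes out the sites that livers have in common and lowers the counts, so r falls in part by construction.

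**Figure D2:**
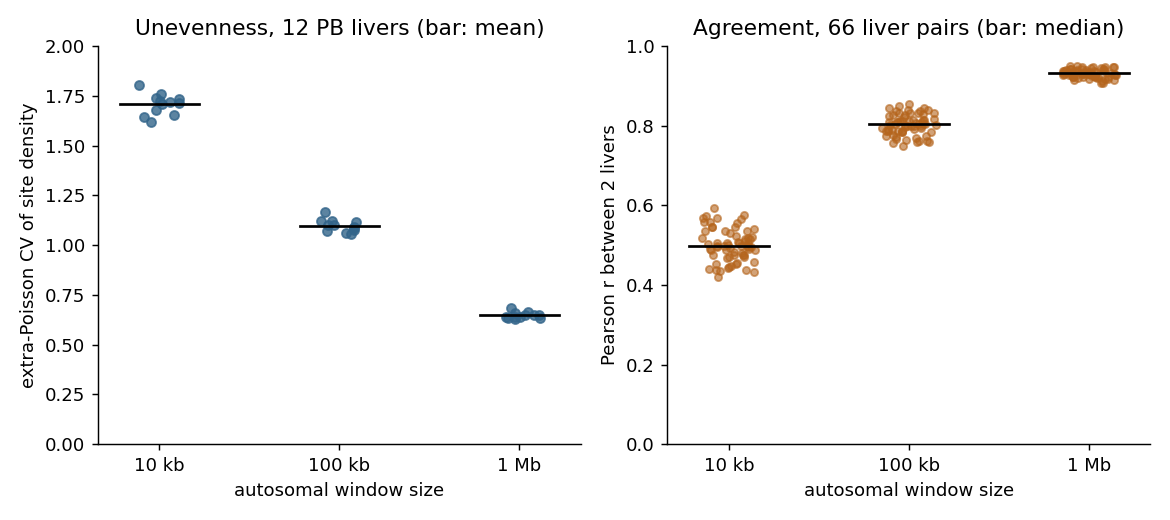
Left, extra-Poisson CV of site density in each PB liver (n = 12, bar: mean) by autosomal window size; right, Pearson's r between the window counts of 2 livers over 66 pairs (bar: median). The mean CV falls from 1.71 at 10 kb to 0.648 at 1 Mb while the median r rises from 0.498 to 0.931.

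In single 1 Mb windows the livers differed by somewhat more than counting alone gives, but few windows stood out. A chi-square test of homogeneity over the 12 livers (11 degrees of freedom) was run on 2368 windows, those with at least 5 expected sites in every liver. The median statistic was 1.03 times its degrees of freedom, where a chi-square distribution has 0.940, and 201 windows (8.49%) had an unadjusted p under 0.05, against the 5% that counting alone gives. After Benjamini-Hochberg adjustment 1 window was called, 0.0422% of those tested. A spread common to all windows was estimated with edgeR as a CV between livers of 4.15%.

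The window called was chr4:6000001-7000000, a region known to hold Cyp7a1, the rate-limiting enzyme of bile acid synthesis, and Tox, a gene for an HMG-box nuclear protein, with Sdcbp and Nsmaf between them in the GRCm38.p6 gene order. Livers 1 to 6 held 5.14, 4.66, 4.70, 4.46, 4.90 and 6.82 sites per 10000 there. Livers 7 to 12 held 7.68, 6.24, 9.93, 5.59, 8.43 and 9.90 (chi-square test, p = 3.3e-08, adjusted p = 7.8e-05). All livers above 7 are among livers 7 to 12, although the ranges of the 2 sets overlapped. Leaving out any 1 liver kept the call, with adjusted p between 3.0e-05 and 0.011, and so did thinning every liver to the smallest (adjusted p = 0.00023) and dropping reused positions (adjusted p = 0.0055). Within livers 1 to 6 alone the adjusted p was 0.90 (chi-square test, unadjusted p = 0.33). Within livers 7 to 12 alone it was 0.36 (chi-square test, unadjusted p = 0.0033). Each of these tests rests on 6 livers and has less power than that on 12, so neither shows that livers within a set are alike. The windows with the next smallest p, chr9:80000001-81000000 with 1.54 to 5.69 sites per 10000 and chr1:135000001-136000000 with 1.45 to 5.15, were not called (adjusted p = 0.11 each).

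Within this window the excess stood at its distal end. In its last 300 kb, from 6700001 to 7000000, which is the side of Tox, livers 1 to 6 held 10, 16, 21, 5, 24 and 16 sites, or 0.769 to 2.33 per 10000. Livers 7 to 12 held 53, 30, 36, 24, 45 and 39 sites, or 2.68 to 5.68 per 10000, and the 2 ranges did not overlap. In the first 700 kb, the side of Cyp7a1, the ranges were 2.33 to 4.76 and 2.91 to 5.67 and overlapped widely. The sites of the last 300 kb lay at 24 to 52 distinct positions per liver in livers 7 to 12, so they did not rest on a few positions. This division of the window was chosen after its values were seen and was not tested. The livers with more sites here are those with an X share of 3.49% to 3.65% and 2 to 12 Y sites. The part of whatever sets those libraries apart in this difference was not tested.

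**Figure D3:**
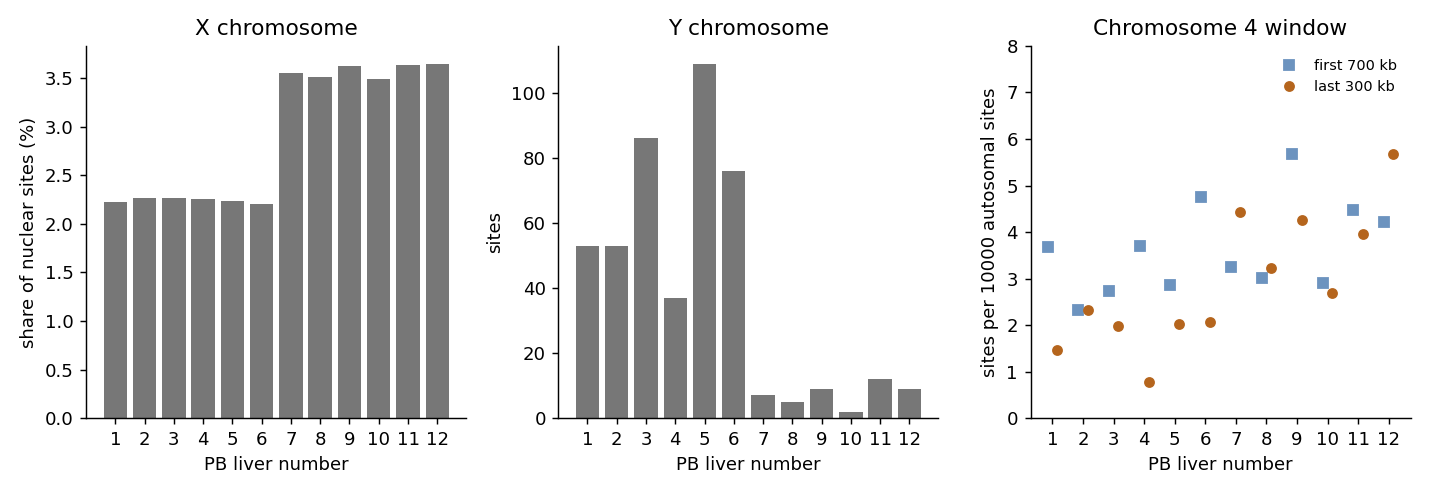
X chromosome share of nuclear sites (left) and number of Y chromosome sites (middle) in PB livers 1 to 12, and sites per 10000 autosomal sites in the first 700 kb (squares) and last 300 kb (circles) of the chromosome 4 window from 6 to 7 Mb (right). Livers 7 to 12 have the higher X share and fewer Y sites, and in the last 300 kb they sit at 2.68 to 5.68, above the 0.769 to 2.33 of livers 1 to 6.

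The catalogue of positions kept growing as livers were added. Strand was ignored here, and the mean over all orders of adding livers was computed exactly, since liver numbers have no order. A single liver held 89843 positions on average, 6 livers 462649 and all 12 livers 833852. The second liver brought 91.9% new positions, the sixth 75.9% and the twelfth 64.8%, or 58256 positions. The positions of any single liver absent from the other 11 made up 63.3% to 66.1% of that liver, so no liver stood apart. Between a pair of livers the overlap ran from 5.71% of the positions of liver 5 that were also in liver 4 to 11.3% of those of liver 12 also in liver 7, with a median of 8.21%. Liver 4, the smallest library, gave the lowest overlap for every other liver, and liver 7, the largest, the highest. The range is thus no measure of likeness apart from library size.

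Of the 833852 positions, 699076 (83.8%) were found in 1 liver, 83365 (10.0%) in 2 and 66 in all 12. The Chao2 estimator, which extrapolates from the positions found in 1 and in 2 livers, gave 3520721 positions, of which the 12 livers had shown 23.7%. It is a lower bound that assumes livers sampled alike, and with position and strand counted it was 4813683. In livers 1 to 6 alone it was 2250021 and in livers 7 to 12 alone 2351891, so the estimate still rose with the number of livers. The deposited table that merges livers 1 to 12 lists the same 833852 positions, and its number matched the count of liver and strand records at all of them, with a highest value of 24.

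**Figure D4:**
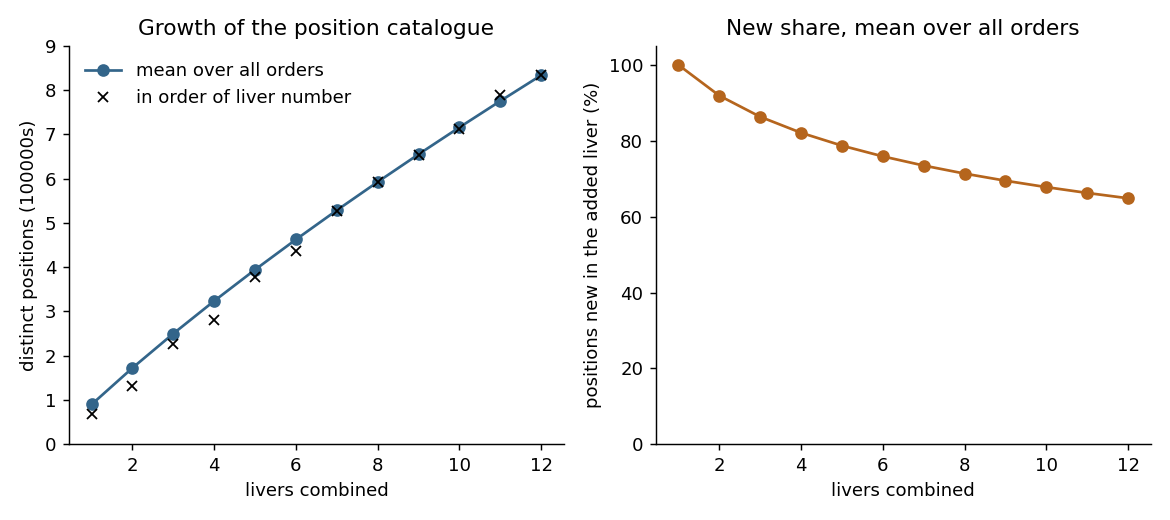
Left, distinct PB positions (in units of 100000) against the number of livers combined, as the mean over all orders (line) and in order of liver number (crosses); right, the share of an added liver's positions that are new, as the mean over all orders. The curve reaches 833852 positions at 12 livers without a plateau, and the new share falls from 100% to 64.8%.

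Positions hit in every liver were hit in either orientation. Of the 66 positions found in 12 livers, 65 had records on both strands. The 3 with the highest summed support were the Ugt1a1 neighbour on chromosome 1 given above, chr6:71170423-71170426 and chr7:36842753-36842756. The chromosome 6 position lies near Fabp1, the liver fatty acid binding protein gene. It was hit on both strands in all 12 livers, with 24 records, a median support of 136 and a summed support of 3856. The chromosome 7 position had 9 plus-strand and 11 minus-strand records and a summed support of 3329. Of positions found in 2 livers 51.2% had both strands, of those found in 3 livers 76.5%, and of those found in 6 livers 98.0%. A position hit more often has more chances to show both strands. The shares expected if each hit took either strand at random were not computed, so these shares are a description alone.

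Strand use was close to balanced with a small excess of the minus strand in each liver. The minus strand held 50.3% of autosomal sites in the lowest liver, 50.8% in the median and 51.5% in the highest. The excess over 50% was 0.858 ± 0.464 percentage points (SD, n = 12), in the same direction in 12 of 12 livers (exact sign-flip permutation test, two-sided, p = 0.00049, the smallest that 12 livers allow, adjusted p = 0.0020 over 4 tests). It lay on all 19 autosomes on average, from 50.4% minus on chromosome 19 to 51.3% on chromosome 17. The X chromosome held 50.2% to 54.3% minus-strand sites over the livers. The size of the autosomal excess depended on the sites kept. Among sites with support of at least 10 it was 0.473 percentage points (exact sign-flip permutation test, p = 0.0015). With positions found in more than 1 liver left out it was 1.22 percentage points (exact sign-flip permutation test, p = 0.00049).

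No 1 Mb window stood out from this general excess. In an edgeR quasi-likelihood test of minus against plus counts with liver as block, 0 of 1652 windows were called (0%), with 98 at an unadjusted p under 0.05. DESeq2 called 0 as well, with 23 at an unadjusted p under 0.05. The window with the smallest p, chr15:62000001-63000000, held 44.0% minus-strand sites, 428 against 545, with the plus strand ahead in 10 of 12 livers. Its log2 minus over plus was -0.39 after each strand was scaled to its total (edgeR, adjusted p = 0.051). The windows with the next smallest p were chr4:147000001-148000000 with 63.1% minus (adjusted p = 0.089, edgeR) and chr13:10000001-11000000 with 61.9% minus (adjusted p = 0.23, edgeR). Leaving out liver 2, 4 or 6 gave 1 called window each, and the other leave-outs gave 0.

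No small set of sites held a large part of the support. Sites of liver 7 had the lowest median support, 17, and those of liver 1 the highest, 87, with 57 in the median liver. The quartiles were 12 and 22 in liver 7 and 54 and 111 in liver 1. Sites at the smallest value of 3 made up 1.57% to 2.18% of a liver. The best supported 1% of sites took 3.11% to 3.85% of all support. The 3 best supported sites all lay in liver 3, with 1417 at chr14:22618364-22618367, 1120 at chr9:35077900-35077903 and 910 at chr17:46329665-46329668. The first and the last of these positions were found in no other of the 12 livers.

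Livers with more sites tended to have less support per site. Over 12 livers Pearson's r between site number and median support was -0.632 (permutation p = 0.032) and Spearman's rho -0.685 (permutation p = 0.017). Among the 3 relations to site number computed, the adjusted p was 0.095 for r and 0.052 for rho, so neither passed. Without livers 5 and 7, the farthest from the median site number, r was -0.532. Within livers 1 to 6 it was -0.659 and within livers 7 to 12 -0.684. Livers 7 to 12 also had lower median support, 17 to 69 against 50 to 87 in livers 1 to 6, with overlapping ranges. The other relations, of site number to the minus-strand share (r = -0.365, permutation p = 0.24, adjusted p = 0.36) and to the CV over 100 kb windows (r = -0.241, permutation p = 0.46, adjusted p = 0.46), did not pass either.

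Sites at positions found in more than 1 liver had slightly higher support than sites at positions found in a single liver. Median support was 90 against 85 in liver 1 and 28 against 26 in liver 11, and equal at 17 in liver 7. The difference of medians was 0.08 ± 0.03 on the log2 scale (SD, n = 12), above 0 in 11 of 12 livers (exact sign-flip permutation test, p = 0.00098, adjusted p = 0.0020). The median liver had a median support of 56 at positions found in 1 liver, 58.5 at those found in 2 and 64.5 at those found in 6 or more. Sites in the densest 10% of 100 kb windows, ranked on the other 11 livers, differed less, by 0.03 ± 0.01 (SD, n = 12), above 0 in 10 of 12 livers (exact sign-flip permutation test, p = 0.0020, adjusted p = 0.0026). With positions found in more than 1 liver left out that difference was 0.01 (exact sign-flip permutation test, p = 0.13). Minus-strand sites had a higher median than plus-strand sites by 0.02 ± 0.02 (SD, n = 12) in 9 of 12 livers (exact sign-flip permutation test, p = 0.0039, adjusted p = 0.0039), but the direction turned when means of log2 support were taken in place of medians, to -0.03 (exact sign-flip permutation test, p = 0.034).

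**Figure D5:**
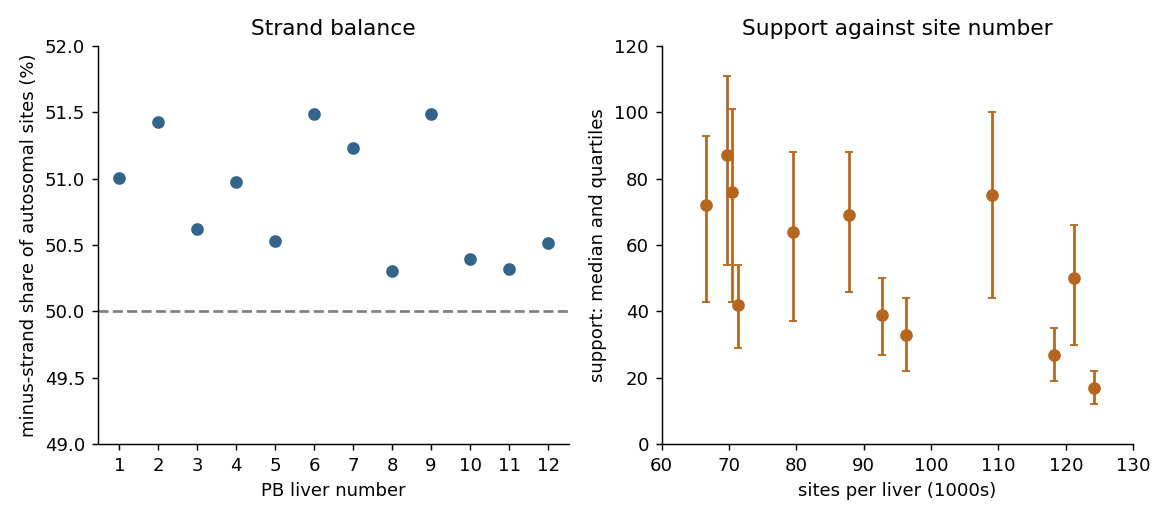
Left, minus-strand share of autosomal sites in each PB liver, on an axis from 49% to 52% with the dashed line at 50%; right, median support with its quartiles against the number of sites per liver. All 12 shares lie between 50.3% and 51.5%, and median support runs from 87 in liver 1 to 17 in liver 7, the liver with most sites.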

How the data were processed

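PB livers 1 to 12 were analysed and no other liver was used. Per the submitters' processing notes, reads were processed with cutadapt and BWA on GRCm39, and versions and filters are not given in the sources used here. The deposited table of each liver gives chromosome, start, end and, in 1 field, strand and a whole number of unstated meaning, taken as reads. The deposited merged table gives counts of liver and strand records per position. Fragments were amplified in 2 nested PCRs with no molecular identifier named in the labels, so reads behind a site cannot be taken as separate molecules or cells.

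Autosomal windows ran from the window of the first to that of the last site of each chromosome. Windows called by name were the 10 densest of 10 kb (1 of them is not reported here) and the 5 densest of 100 kb and 1 Mb, with the 3 positions of highest summed support among those found in all 12 livers, the 3 best supported sites and the 3 windows of smallest p per test. Gene names come from general knowledge of the region, and the RefSeq table of GRCm38.p6 served for names and gene order. Its gene starts also gave a coarse check, across builds, that the gene a window is named for lies in its neighbourhood. The members and lists were chosen with earlier results of these data known. Each liver is 1 replicate, and the labels do not say how mice were divided into cohorts. The count tests used edgeR 4.0.16 (TMM scaling, low-count filter, liver as block) and DESeq2 1.42.0 in R 4.3.3. The rest used scipy 1.17.1, pandas 2.3.3 and numpy 2.4.6 under Python 3.11.15, with 100000 resamples for correlations. The threshold was an adjusted p under 0.05.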

Additional observations from a re-analysis of the deposited data

Results flagged for a closer look

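A total of 15 insertion sites lay on the mitochondrial genome, outside the nuclear windows, at 15 distinct positions. They occurred in 9 of the 12 livers, with at most 4 in a liver, and had a median support of 22 (5 to 89).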

How the results depend on the processing

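The following values moved by more than the spread between livers or changed their side of the threshold; the cause was not tested unless stated. Merging positions within 10 bp gave CVs of 1.55 at 10 kb and 1.06 at 100 kb and 63.6% new positions in the last liver. Thinning gave median r of 0.426 (10 kb), 0.754 (100 kb) and 0.911 (1 Mb) and 69.3% new positions. Leaving out positions in more than 1 liver by construction takes most from dense windows and takes out the sites that livers have in common. That setting gave CVs of 1.17, 0.804 and 0.50 and median r of 0.164, 0.553 and 0.829 (10 kb, 100 kb, 1 Mb). It gave 27.5% of sites in the densest 10% of 100 kb windows, 2 windows differing between livers, and 0 of 10, 1 of 5 and 3 of 5 densest windows kept. The support differences were then 0.0084 for dense windows and 0.0030 for strand (the latter setting added later), neither passing. Medians of whole numbers tie in some livers, which raises the smallest p that can be reached. Support of at least 10 gave 0.016 for dense windows, not passing. Mean log2 support reversed the strand difference to -0.028. Counting position and strand gave 73.1% new positions. Windows of 100 kb gave 0 windows differing between livers.

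Alternatives chosen after the data were seen included livers 1 to 6 alone, livers 7 to 12 alone and the leave-outs for the relation of site number to support. The subsets gave 437045 and 487727 distinct positions, 77.2% and 74.7% new, and 0 and 2 windows differing between livers. The Chao2 estimate was 2250021 in livers 1 to 6. Median r in livers 7 to 12 was 0.534, 0.823 and 0.939. Strand differences in support of 0.019 and 0.026, and a dense-window difference of 0.023 in livers 7 to 12, had the smallest p that 6 livers with these ties allow (0.0625 in livers 1 to 6, 0.125 in livers 7 to 12), so these tests could not pass and say nothing of stability. Leaving out each liver in turn gave 65.9% to 66.7% new positions, 0 to 1 windows with unequal strands and r of -0.757 to -0.514 between site number and support, with the unadjusted p no longer under 0.05 for 5 of 12. No other result recomputed in this way changed sign or call; the ranks of the densest windows and the other relations to site number were not recomputed. No paired analysis was possible because a single group of livers enters, so their numbers pair nothing across groups; strand and support were compared within each liver. Windows of 10 kb hold 0.372 sites per liver on average, which limits what a single liver shows there.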

Other observations

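Stretches with no PB site in any of the 12 livers were short compared with a chromosome. The 5 longest within the autosomes' first and last sites were 0.662 Mb at chr4:121735661-122398103, 0.650 Mb at chr14:18612744-19262461, 0.605 Mb at chr4:41853397-42458841, 0.538 Mb at chr5:15104653-15642676 and 0.532 Mb at chr2:175057879-175589934. Whether reads can be placed uniquely in these stretches was not examined.

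Within a liver, neighbouring distinct autosomal positions lay a median of 6988 to 13224 bp apart, and 13.3% to 19.4% of the gaps were under 1 kb. A single liver held 1241 to 4014 positions with records on both strands. Density was also alike in neighbouring windows. Across windows, Pearson's r between the mean densities of adjacent windows was 0.477 at 10 kb, 0.507 at 100 kb and 0.347 at 1 Mb, a description over windows that are not independent.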
